A study of Mus musculus with 12 samples.

Results

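The genes described here encode 8 subunits of the Tip60-p400 complex: Kat5 (the gene for Tip60), Ep400 (p400), Trrap, Ruvbl1, Ruvbl2, Dmap1, Epc1 and Ing3. They were chosen by name for their membership of the complex, not by how they behaved, and they are 8 of the 29848 genes tested on the array. A probe was taken for a member where its RefSeq accession mapped to that symbol, which gave 11 probes, with a pair each for Kat5, Epc1 and Ing3. Messenger RNA was measured in E14 cells, a feeder-independent mouse embryonic stem (ES) cell line that was grown on gelatin in medium with serum and LIF. Every sample, the control included, was a dish of cells transfected with esiRNA, a pool of short RNAs cut by an enzyme from a longer double-stranded RNA, and harvested 48 hr later. The knockdowns (KDs) were of Dnmt1, the maintenance DNA methyltransferase, Tet1, which oxidizes 5-methylcytosine, the methyl-CpG binding domain proteins Mbd3 and Mbd2, and Chd4, the remodeling ATPase of the NuRD complex that holds Mbd3 or Mbd2. The control was esiRNA against EGFP, a jellyfish reporter gene. Each of the 6 groups had 2 arrays, and the 2 EGFP KD arrays served as the control for all 5 KDs. A KD in a transfected dish lowers a transcript in a mixed population of cells, so a level here is a mean over transfected and untransfected cells, and fewer cells with a transcript cannot be told apart from less of it per cell. The study's text calls the arrays of a group biological replicates, while the labels do not say that they came from separate cultures.

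Tip60-p400 combines an acetyltransferase with an ATP-dependent histone exchanger. Kat5 is the acetyltransferase of the MYST family that acetylates histones H4 and H2A, and Ep400 is a SWI/SNF-family ATPase that exchanges histone H2A for the variant H2A.Z. Trrap is the large scaffold that binds activators and is shared with the SAGA complex, Ruvbl1 and Ruvbl2 are AAA+ ATPases shared with INO80, SRCAP and the R2TP chaperone, Dmap1 is a SANT-domain protein first found as a partner of Dnmt1, Epc1 holds the acetyltransferase to the rest of the complex, and Ing3 carries a PHD finger that reads methylated histone H3. In ES cells the complex is known for keeping developmental genes silent and for self-renewal.

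Promoter sequence was used for 7 of the 8 genes, as 9 windows of 300 bases (250 before and 50 after a transcription start) from RefSeq on GRCm38.p6. CpG dinucleotides, the target of Dnmt1 and Tet1, numbered 19 and 29 in the Kat5 windows, 33 in Ep400, 31 in Trrap, 11 in Ruvbl1, 12 in Ruvbl2, 17 in Dmap1, and 24 and 25 in the overlapping Ing3 windows. All 9 windows lay above the median of 7 CpG over 32851 mouse promoter windows, whose quartiles were 3 and 20. No methylation was measured on these arrays, so the counts describe sequence and not its modification. The windows of 3 genes are shown because they span this range and because the largest differences (Ep400), the smallest p between KDs (Ruvbl1) and the disagreement of probes (Kat5) described below belong to them, with each CpG in capitals and the strand of the gene given 5′ to 3′. The Kat5 window is chr19:5610045-5610344 on the minus strand, Ep400 chr5:110770668-110770967 on the minus strand, and Ruvbl1 chr6:88465159-88465458 on the plus strand.
Kat5: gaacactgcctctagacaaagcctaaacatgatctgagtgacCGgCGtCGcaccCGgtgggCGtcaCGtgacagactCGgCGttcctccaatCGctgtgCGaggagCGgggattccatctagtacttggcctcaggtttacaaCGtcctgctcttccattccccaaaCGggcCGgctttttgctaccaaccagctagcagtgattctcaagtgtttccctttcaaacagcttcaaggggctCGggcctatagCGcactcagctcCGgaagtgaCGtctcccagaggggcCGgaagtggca
Ep400: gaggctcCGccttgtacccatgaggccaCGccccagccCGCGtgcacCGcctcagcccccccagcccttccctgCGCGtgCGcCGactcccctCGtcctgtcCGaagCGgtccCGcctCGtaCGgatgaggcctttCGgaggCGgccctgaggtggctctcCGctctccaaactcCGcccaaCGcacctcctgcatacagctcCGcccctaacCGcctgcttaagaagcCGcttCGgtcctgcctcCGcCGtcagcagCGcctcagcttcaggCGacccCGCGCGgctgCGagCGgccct
Ruvbl1: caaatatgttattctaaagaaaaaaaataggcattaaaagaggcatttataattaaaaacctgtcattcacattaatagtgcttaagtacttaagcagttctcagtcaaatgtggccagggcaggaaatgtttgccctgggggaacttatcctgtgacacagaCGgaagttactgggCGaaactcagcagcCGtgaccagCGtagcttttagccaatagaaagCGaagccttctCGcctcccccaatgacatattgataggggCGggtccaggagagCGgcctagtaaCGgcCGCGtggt
The Ep400 window is dense in CpG from end to end, while in the Ruvbl1 window the CpG lie in the part nearest the start. Searched on both strands, the E-box CACGTG occurred in 1 of the 9 windows, the Kat5 window shown (7.15% of all windows hold it). The ETS motif CCGGAAG occurred in 2, that Kat5 window and Dmap1 (8.86% of all windows), and the NRF1 core GCGCATGCG in 0 (1.75%). The letters searched do not overlap with one another.

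**Figure D1:**
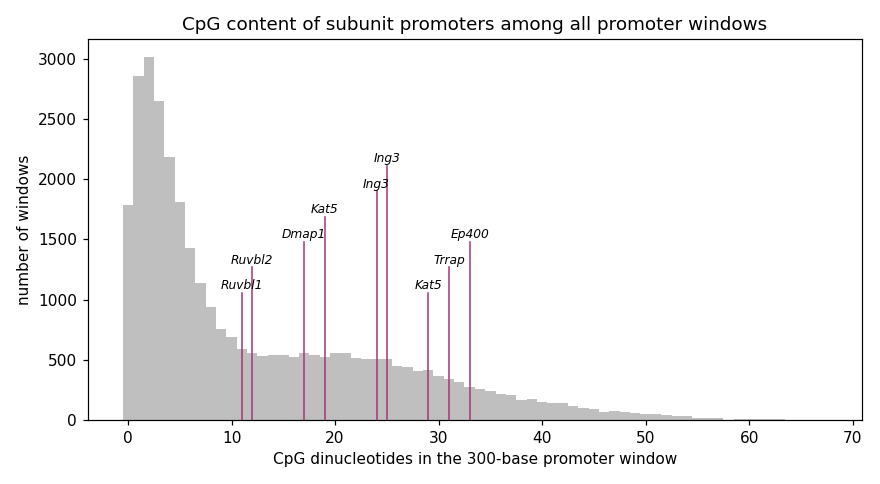
Number of CpG dinucleotides per 300-base promoter window (x axis) against the number of mouse promoter windows with that count (y axis, grey bars), with a line for each of the 9 windows of 7 Tip60-p400 subunit genes (line height has no meaning). The 9 windows sit between 11 and 33 CpG, all above the median of 7.

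Levels below are log2 of the processed signal over the 75th percentile of the same array, so 0 is the level of that percentile, and a probe's level is not set against another probe's. The 75th percentile itself lay between 1784 and 2445 and between 76.9% and 95.2% of probes were above background. All 8 subunits were above background, and none saturated, on 12 of 12 arrays. The arrays sat on 3 slides. Slide 1 held replicate 1 of EGFP, Dnmt1, Mbd3 and Mbd2 KD, slide 2 held EGFP KD replicate 2, both Tet1 KD arrays and Chd4 KD replicate 1, and slide 3 held the other 4 arrays and no control. The targeted transcript fell by 2.96 after Mbd3 KD (limma adjusted p = 0.0042) and by 1.27 after Chd4 KD (adjusted p = 0.043, a call lost in 18 of 29 alternative settings), and the difference was -1.99 after Dnmt1 KD (adjusted p = 0.37). Against the EGFP KD mean, a Tet1 probe was at -0.017 on the array labelled Tet1 KD replicate 1, at -1.81 on Tet1 KD replicate 2 and at -1.78 on the array labelled Mbd2 KD replicate 1. An Mbd2 probe was at -0.23 on that last array, at -1.77 on Mbd2 KD replicate 2 and at -1.74 on the array labelled Tet1 KD replicate 1. The Mbd2 probe used in the table of genes was closer to the controls on the Mbd2 KD arrays, at -0.074 and -0.068. The arrays labelled Tet1 KD replicate 1 and Mbd2 KD replicate 1 go against their labels, so values for Tet1 KD and Mbd2 KD are given with and without them. Without them, each of these KDs rests on 1 array, its replicate 2, and that of Mbd2 KD is on slide 3. Of 10 ES cell markers, 9 were above background on all arrays, and Nanog, whose probe was dim, on 10. None was called by limma in any KD, and 0 had an unadjusted p under 0.05. Of 9 markers of differentiated lineages, T was above background on 2 arrays and Cdx2 on 8, and none was called, with up to 2 at an unadjusted p under 0.05 in a KD. Their median log2 fold change ran from -0.28 after Dnmt1 KD, with 6 of 9 lower, to 0.21 after Tet1 KD, and in Mbd3 KD 5 of 9 were lower, with a median of -0.25. Gata4 was above both controls in each of the 5 KDs, by 0.85 after Chd4 KD to 1.58 after Dnmt1 KD, with limma adjusted p between 0.17 and 1. Krt8 was at 0.87 after Mbd3 KD (limma adjusted p = 0.38). The fibroblast markers, for feeder cells, had 6 of 7 measured. Thy1, which embryonic stem cells can also express, rose by 1.28 after Mbd3 KD (limma adjusted p = 0.011) and 1.42 after Chd4 KD (adjusted p = 0.0021), and Col1a1 rose by 2.50 after Chd4 KD (adjusted p = 0.0020). Of the 6, 4 were lower both after Mbd3 KD (median -0.40) and after Chd4 KD (median -0.26, lowest -1.07), and none was called lower. The part of such cells in the subunit values was not tested.

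No subunit of Tip60-p400 was called in any KD. In the limma fit over the 12 arrays, with Benjamini-Hochberg adjustment over all genes and a call at an adjusted p under 0.05, the members called were 0 of 8 after Dnmt1 KD (background 0% of all genes), 0 of 8 after Tet1 KD (0%), 0 of 8 after Mbd3 KD (0.771%), 0 of 8 after Mbd2 KD (0%) and 0 of 8 after Chd4 KD (3.17%). The count of members at an unadjusted p under 0.05 was also 0 in each KD, where 2.06% to 12.8% of all genes lay. The F test over the 6 groups called 0 of 8 (2.23% of all genes), and the 10 comparisons of KDs with each other called 0 of 8 (4.59% of all genes in at least 1 of them). These shares of called genes are so small that 0 of 8 does not set the members apart from other genes.

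The intervals say how large a difference the 2 arrays a group could have missed. All 40 of the 95% intervals (8 genes in 5 KDs) included 0, and 37 of them lay within 1 log2 unit of 0, so a change of more than 2-fold in either direction is outside them. The 3 that reached past 1 were those of Ep400 in Mbd3, Mbd2 and Chd4 KD. Only 11 of the 40 lay within 0.5 log2 unit. The fit behind these intervals has no term for the slide, and slide 3 held no control. A difference between slides is therefore not separated from that of a KD in them. The Tet1 KD and Mbd2 KD intervals are of the groups as labelled, which include the arrays that go against their labels. They do not bound the effect of lowering Tet1 or Mbd2, and intervals without these arrays are not given. The range of the members over 12 arrays ran from 0.46 for Dmap1 to 0.95 for Ep400, and for all 8 it was under the median range of all genes, 1.04. A narrower range was held by 9.2% of genes for Dmap1 and by 44.3% for Ep400. The genes compared were not matched for signal level.

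**Figure D2:**
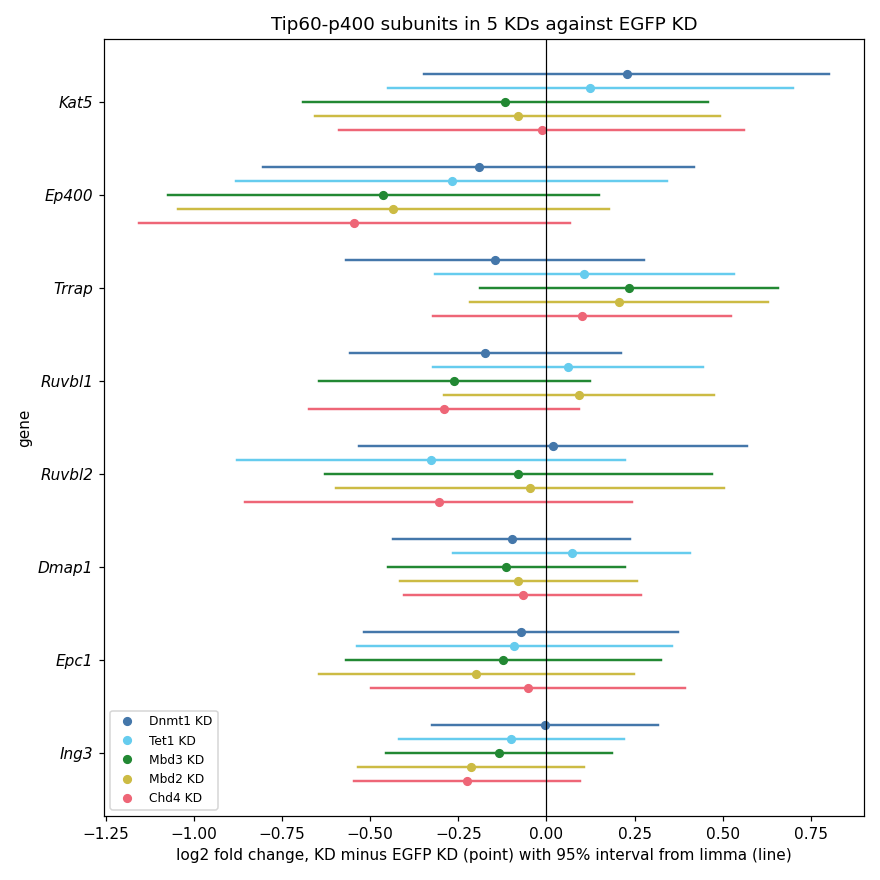
Log2 fold change of each Tip60-p400 subunit (rows) in each of the 5 KDs (colours), KD mean minus EGFP KD mean of 2 arrays each, with the 95% interval from limma as a line. All 40 lines cross 0, and the Ep400 points for Mbd3, Mbd2 and Chd4 KD lie farthest to the left, between -0.54 and -0.43. Tet1 KD and Mbd2 KD are shown as labelled.

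More of the differences were below 0 than above it, and their direction depended on the scaling and on the arrays kept. Of the 8 subunits, the number below their EGFP KD mean was 6 after Dnmt1 KD, 4 after Tet1 KD, 7 after Mbd3 KD, 6 after Mbd2 KD and 7 after Chd4 KD. The median of the members was -0.086, -0.015, -0.12, -0.081 and -0.15 in that order, beside -0.0098, 0.088, -0.035, 0 and 0 for all genes. Without the array labelled Tet1 KD replicate 1, 6 of 8 were lower after Tet1 KD, and 5 of 8 were lower after Mbd2 KD once its replicate 1 was set aside. Without the 4 arrays of slide 3, 4 of 8 were lower after Dnmt1 KD and 5 of 8 after Mbd3 KD and Chd4 KD. The counts after Tet1 KD (4) and Mbd2 KD (6) were the same, but in Mbd2 KD 2 members changed sign. Only Tet1 KD then kept both of its arrays, and the Mbd2 KD array left was the one that goes against its label. With division by the array median instead, 8 of 8 were lower after both Tet1 KD and Chd4 KD. With normexp background correction, which moved the median of all genes to between -0.40 and -0.26, no member lay below that median in any KD, although 4, 4, 6, 4 and 6 of the 8 were still below 0 in the order of KDs above. The size of the differences, by the median of their absolute values, was 0.10 to 0.16 for the members and 0.19 to 0.26 for all genes.

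With only 2 arrays a group, a gene can lie outside both controls often. The subunits for which both KD arrays lay on the same side of both EGFP KD arrays were 1 of 8 after Dnmt1 KD (20.9% of all genes), 4 of 8 after Tet1 KD (35%), 4 of 8 after Mbd3 KD (30%), 5 of 8 after Mbd2 KD (22.7%) and 3 of 8 after Chd4 KD (37.9%). With only replicate 2 of Tet1 KD, 6 of 8 lay outside the controls (63.3% of all genes), and with only replicate 2 of Mbd2 KD, 6 of 8 (69.6%). These counts share their 2 control arrays and were not tested.

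**Figure D3:**
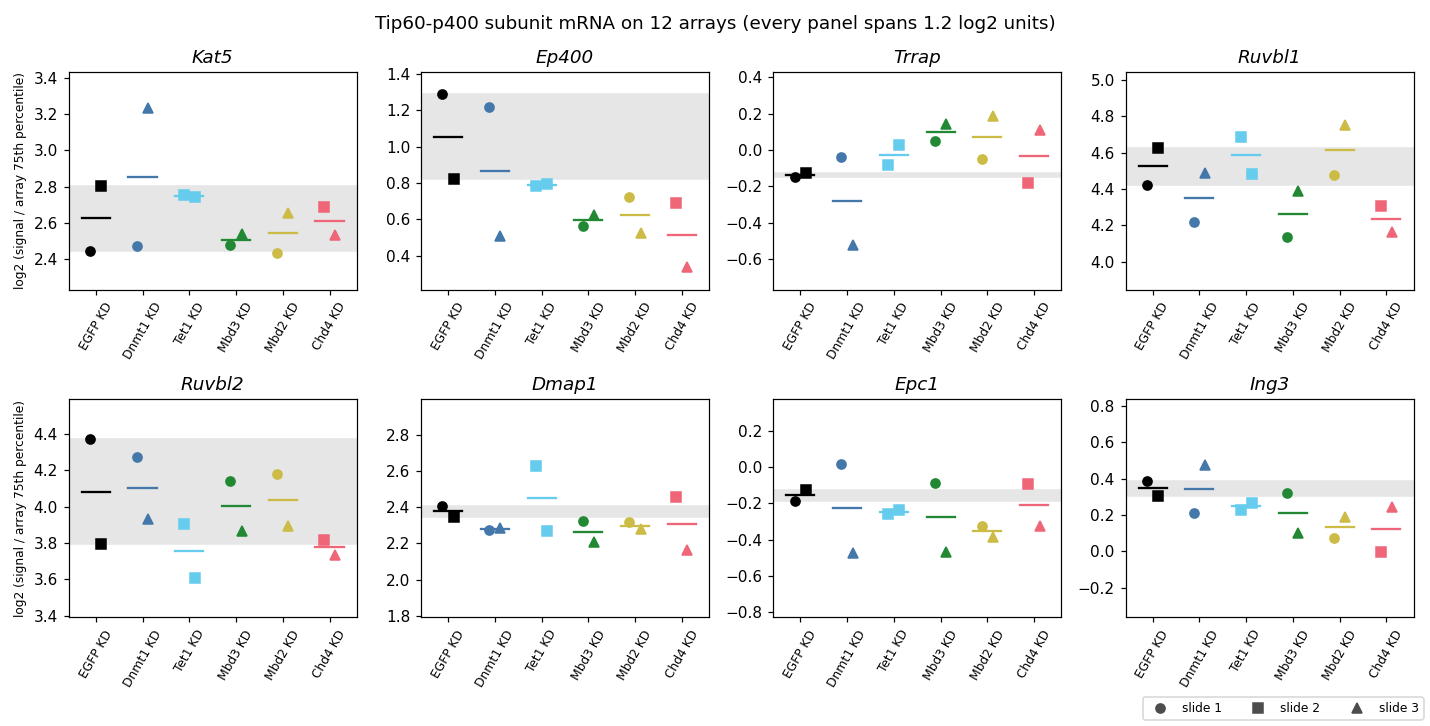
Log2 signal over the array's 75th percentile (y axis) of 8 Tip60-p400 subunits on each of 12 arrays, by group (x axis, left point replicate 1, right point replicate 2), with the marker shape for the slide, a bar for the group mean and a grey band between the 2 EGFP KD arrays. Ep400 lies below its band on 9 of 10 KD arrays, and Ruvbl2 is highest on the 4 arrays of slide 1.

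Kat5, the catalytic subunit, gave no common direction. With replicates 1 and 2 in that order here and below, its log2 signal was 2.45 and 2.80 after EGFP KD, 2.47 and 3.23 after Dnmt1 KD, 2.76 and 2.74 after Tet1 KD, 2.48 and 2.54 after Mbd3 KD, 2.43 and 2.65 after Mbd2 KD, and 2.69 and 2.53 after Chd4 KD. Dnmt1 KD replicate 2 was the highest array and stood above all the others, Mbd2 KD replicate 1 was the lowest, and each KD overlapped with the controls. The log2 fold change was 0.23 after Dnmt1 KD, 0.12 after Tet1 KD, -0.12 after Mbd3 KD, -0.082 after Mbd2 KD and -0.013 after Chd4 KD, each with an SE of 0.24 (n = 2 arrays a group), and the limma adjusted p lay between 0.95 and 1. Without the arrays that go against their labels, the Tet1 KD value was 0.12 and the Mbd2 KD value 0.027. Here and for the other genes, each such value is replicate 2 by itself minus the EGFP KD mean, with no SE given. For Mbd2 KD that array is on slide 3, which has no control. The 4 arrays of slide 1 lay between 2.43 and 2.48 and the 4 of slide 2 between 2.69 and 2.80, with no overlap. Within these slides, each KD array was within 0.12 of the control beside it, from -0.12 after Chd4 KD to 0.032 after Mbd3 KD. The Dnmt1 KD difference of 0.23 came from replicate 2, which is 0.61 above the EGFP KD mean and on the slide with no control, while replicate 1 was 0.15 below that mean and 0.028 above the control of its own slide.

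The other Kat5 probe, A_55_P1996329, which reads the same RefSeq accession, went another way. It was at 0.48 and 0.30 after EGFP KD, 0.23 and -0.22 after Dnmt1 KD, -0.054 and 0.14 after Tet1 KD, 0.17 and -0.12 after Mbd3 KD, 0.25 and -0.14 after Mbd2 KD, and 0.10 and -0.0054 after Chd4 KD. All 10 KD arrays, the 6 that share a slide with a control included, lay below both controls, which 0.868% of all single probes did, and the probe, 1 of 11, was singled out after its values were seen. Its log2 fold changes were close to one another, from -0.39 after Dnmt1 KD to -0.34 after Mbd2 KD, with an SE of 0.20, and none was called (limma adjusted p from 0.63 to 1). On Dnmt1 KD replicate 2 the probe described first had its highest value of the 12 arrays and this one its lowest. Which exons the probes lie in was not worked out here, and the disagreement was not tested further.

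**Figure D4:**
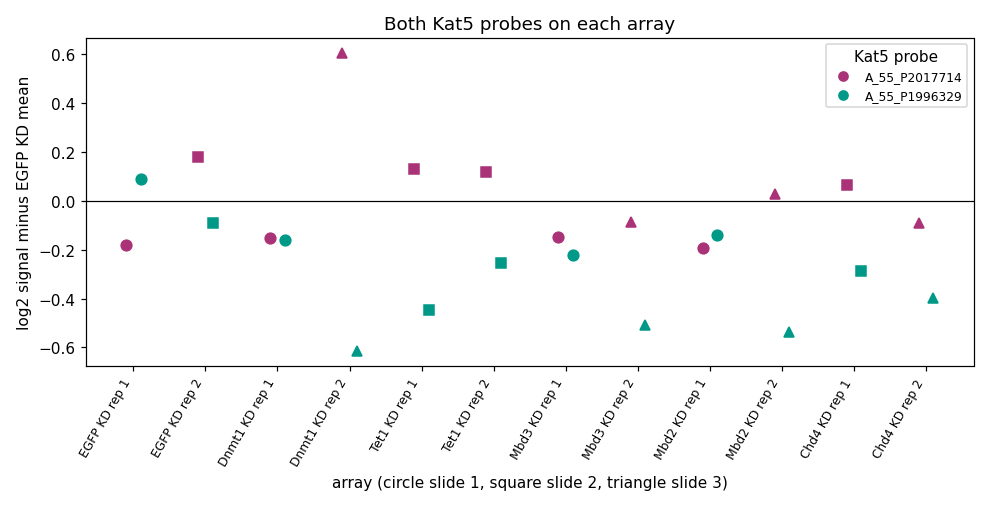
Log2 signal minus the probe's own EGFP KD mean (y axis) for both Kat5 probes on each of the 12 arrays (x axis), with the marker shape for the slide. A_55_P1996329 is below both of its EGFP KD values on all 10 KD arrays, while A_55_P2017714 lies on both sides of 0, with 0.61 on Dnmt1 KD replicate 2.

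Ep400, the ATPase that deposits H2A.Z, had the largest differences of the 8. It stood at 1.29 and 0.82 after EGFP KD, 1.22 and 0.51 after Dnmt1 KD, 0.78 and 0.79 after Tet1 KD, 0.56 and 0.62 after Mbd3 KD, 0.72 and 0.52 after Mbd2 KD, and 0.69 and 0.33 after Chd4 KD. Of the 10 KD arrays, 9 lay below both controls, and Dnmt1 KD replicate 1 lay between them. All 10 are set against the same controls, and the share of all genes with such a count was not worked out. The log2 fold change was -0.19 after Dnmt1 KD, -0.27 after Tet1 KD, -0.46 after Mbd3 KD, -0.43 after Mbd2 KD and -0.54 after Chd4 KD, each with an SE of 0.26. None was called. The smallest p belonged to Chd4 KD, with an interval of -1.16 to 0.067 and a limma adjusted p of 0.48. The difference was -0.26 after Tet1 KD and -0.53 after Mbd2 KD when the arrays that go against their labels were left out.

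The controls of Ep400 were 0.47 apart, and EGFP KD replicate 1 was the highest of the 12 arrays. The differences from the control of the same slide ran from -0.73 to -0.029. On slide 1, Ep400 differed from the control by -0.73 after Mbd3 KD and by -0.070 after Dnmt1 KD, and the first Mbd2 KD array, one of the pair that go against their labels, by -0.57. On slide 2, where the control was the lower of the pair, the differences were -0.14 after Chd4 KD, -0.029 on Tet1 KD replicate 2 and -0.042 on its replicate 1, which goes against its label. Slide 3, with no control, held the 3 lowest arrays and ran from 0.33 to 0.62. Between slides lay 48.0% of the variance of Ep400 over the arrays, beside 58.7% over all genes. Without EGFP KD replicate 1, the Chd4 KD difference was -0.31, and without EGFP KD replicate 2 it was -0.78. With the slide as a fixed block, the Chd4 KD difference was -0.37, with a limma adjusted p of 0.50, and with the slide as a random block -0.40, with an adjusted p of 0.41. The Mbd3 KD difference was -0.40 and -0.41 in these fits.

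Trrap, the scaffold, was the subunit most often above the controls. Its log2 signal was -0.15 and -0.13 after EGFP KD, -0.039 and -0.53 after Dnmt1 KD, -0.085 and 0.025 after Tet1 KD, 0.048 and 0.14 after Mbd3 KD, -0.048 and 0.19 after Mbd2 KD, and -0.18 and 0.11 after Chd4 KD. The controls lay only 0.020 apart, 8 of 10 KD arrays were above both, and Dnmt1 KD replicate 2 was the lowest of all. For this count, too, the share of all genes was not worked out. The log2 fold change was 0.23 after Mbd3 KD, 0.21 after Mbd2 KD, 0.11 after Tet1 KD, 0.10 after Chd4 KD and -0.14 after Dnmt1 KD, with an SE of 0.18 and a limma adjusted p between 0.82 and 1. It was 0.16 after Tet1 KD and 0.32 after Mbd2 KD with the arrays that go against their labels left out. The variance of Trrap between slides was small, 2.54%, and within slides 5 of 6 KD arrays were above the control beside them, by 0.043 to 0.20, with -0.052 after Chd4 KD.

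The paired AAA+ ATPases, which form a shared ring, were not high on the same arrays. Ruvbl1 stood at 4.42 and 4.63 after EGFP KD, 4.22 and 4.48 after Dnmt1 KD, 4.69 and 4.48 after Tet1 KD, 4.13 and 4.39 after Mbd3 KD, 4.48 and 4.75 after Mbd2 KD, and 4.30 and 4.16 after Chd4 KD. Both arrays of Mbd3 KD and of Chd4 KD lay below both controls, and the other KDs overlapped with them. Its log2 fold change was -0.26 after Mbd3 KD and -0.29 after Chd4 KD, with an SE of 0.16, an interval of -0.67 to 0.093 after Chd4 KD and a limma adjusted p of 0.76 and 0.60. It was -0.17 after Dnmt1 KD, 0.061 after Tet1 KD and 0.092 after Mbd2 KD, and without the arrays that go against their labels -0.040 after Tet1 KD and 0.23 after Mbd2 KD. Within slides the value was close to the pooled one, at -0.29 after Mbd3 KD on slide 1 and -0.32 after Chd4 KD on slide 2. Ruvbl1 had the largest share of variance between groups of the 8 subunits, 63.9%, beside 42.0% over all genes, and an F test adjusted p of 0.73 in limma. Of the 80 comparisons of members between KDs, the smallest p was that of Ruvbl1 after Mbd2 KD minus Chd4 KD, a difference of 0.38 (SE 0.16, limma adjusted p = 0.39).

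Ruvbl2 was highest on slide 1. Its log2 signal was 4.38 and 3.79 after EGFP KD, 4.27 and 3.93 after Dnmt1 KD, 3.90 and 3.61 after Tet1 KD, 4.14 and 3.86 after Mbd3 KD, 4.18 and 3.90 after Mbd2 KD, and 3.82 and 3.74 after Chd4 KD. The 4 arrays of slide 1 were the 4 highest, between 4.14 and 4.38, and the other 8 lay between 3.61 and 3.93. Between slides lay 83.0% of its variance, the largest share of the 8 genes. Its log2 fold change was -0.33 after Tet1 KD and -0.31 after Chd4 KD, the KDs with no array on slide 1, and 0.019, -0.080 and -0.046 in Dnmt1, Mbd3 and Mbd2 KD, with an SE of 0.23 and a limma adjusted p between 0.78 and 1. Within slide 2 the Chd4 KD array was 0.027 above the control, Tet1 KD replicate 2 was at -0.18, and the array labelled Tet1 KD replicate 1, which goes against its label, was at 0.11. Without the arrays that go against their labels, the value was -0.47 after Tet1 KD and -0.19 after Mbd2 KD.

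Dmap1, the Dnmt1 partner, was the steadiest of the subunits. It was at 2.41 and 2.35 after EGFP KD, 2.27 and 2.28 after Dnmt1 KD, 2.63 and 2.27 after Tet1 KD, 2.32 and 2.21 after Mbd3 KD, 2.32 and 2.28 after Mbd2 KD, and 2.46 and 2.16 after Chd4 KD. It was the only member with both Dnmt1 KD arrays outside the controls on the same side, 1 of 8 beside 20.9% of all genes. Its log2 fold change after Dnmt1 KD was -0.099 (SE 0.14, interval -0.44 to 0.24, limma adjusted p = 0.97). The other values were 0.071 after Tet1 KD, -0.11 after Mbd3 KD, -0.079 after Mbd2 KD and -0.067 after Chd4 KD. Without the arrays that go against their labels, they were -0.11 after Tet1 KD and -0.098 after Mbd2 KD. The highest array was the one labelled Tet1 KD replicate 1, 0.28 above the control of its slide, and the Dnmt1 KD array on slide 1 was at -0.13.

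Epc1, the bridging subunit, was at -0.18 and -0.13 after EGFP KD, 0.018 and -0.47 after Dnmt1 KD, -0.26 and -0.24 after Tet1 KD, -0.087 and -0.47 after Mbd3 KD, -0.32 and -0.39 after Mbd2 KD, and -0.092 and -0.32 after Chd4 KD. Both arrays of Tet1 KD and of Mbd2 KD lay below the controls, and the other KDs had an array on each side. Between slides lay 63.5% of its variance, and the slide 3 arrays ran from -0.47 to -0.32. Its log2 fold changes ran from -0.20 after Mbd2 KD (SE 0.19, limma adjusted p = 1) to -0.052 after Chd4 KD. Without the arrays that go against their labels, it was -0.23 after Mbd2 KD and -0.081 after Tet1 KD. Within slides, Epc1 was above the control beside it by 0.20 after Dnmt1 KD, 0.098 after Mbd3 KD and 0.033 after Chd4 KD. The difference was -0.11 on Tet1 KD replicate 2. On the arrays that go against their labels it was -0.13 (labelled Tet1 KD) and -0.14 (labelled Mbd2 KD). The other Epc1 probe, A_52_P117197, carries another accession and, with the outlier spot of the array labelled Mbd2 KD replicate 1 left out, gave log2 fold changes from -0.12 after Mbd3 KD to 0.15 after Tet1 KD.

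Ing3, the reader of methylated H3, was at 0.39 and 0.31 after EGFP KD, 0.21 and 0.48 after Dnmt1 KD, 0.23 and 0.27 after Tet1 KD, 0.32 and 0.10 after Mbd3 KD, 0.073 and 0.19 after Mbd2 KD, and -0.0018 and 0.24 after Chd4 KD. Of the 10 KD arrays, 8 lay below both controls, including both arrays of Tet1, Mbd2 and Chd4 KD. How many of all genes reach such a count against the same controls was not worked out. The log2 fold change was -0.23 after Chd4 KD, with an interval of -0.55 to 0.094 and a limma adjusted p of 0.64, and -0.21 after Mbd2 KD, -0.13 after Mbd3 KD, -0.099 after Tet1 KD and -0.0040 after Dnmt1 KD, each with an SE of 0.14. All 6 KD arrays with a control on their slide were below it, by differences from -0.32 on the array labelled Mbd2 KD replicate 1, which goes against its label, to -0.038 on Tet1 KD replicate 2. The Chd4 KD array was at -0.31. Without the arrays that go against their labels, the value was -0.079 after Tet1 KD and -0.16 after Mbd2 KD. The other Ing3 probe, A_52_P154880, lay below both controls on 7 of 10 KD arrays, both Tet1 KD arrays among them. Its log2 fold change was -0.17 after Dnmt1 KD, -0.029 after Tet1 KD, 0.015 after Mbd3 KD, 0.061 after Mbd2 KD and -0.019 after Chd4 KD, and none was called.

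The rest of the complex and its relatives gave no call either. Of the 11 other Tip60-p400 subunits, 0 were called by limma in any KD (0.771% of all genes after Mbd3 KD, 3.17% after Chd4 KD). At an unadjusted p under 0.05 were 1 of these 11 after Mbd3 KD (9.67% of all genes) and 2 after Chd4 KD (12.8%). The other KDs had 0 (2.06% to 4.74%). Their median log2 fold change ran from -0.10 after Dnmt1 KD to 0.023 after Mbd3 KD. Actl6a, the actin-related subunit also known as Baf53a, had the smallest p. It was at 3.44 and 3.19 after EGFP KD and at 2.77 and 2.79 after Mbd3 KD, a difference of -0.53 (SE 0.18, limma adjusted p = 0.34), and at 2.89 and 2.69 after Chd4 KD, also -0.53 (adjusted p = 0.23). Morf4l2 was at 5.30 and 4.99 after EGFP KD and 4.67 and 4.27 after Chd4 KD, a difference of -0.68 (SE 0.29, limma adjusted p = 0.39). In each of these cases the KD arrays lay below both controls, which picking genes by small p favours. Of all genes, 30% after Mbd3 KD and 37.9% after Chd4 KD had both arrays outside the controls on the same side.

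Among complexes that share subunits with Tip60-p400, 0 of 14 measured SRCAP and INO80 subunits were called. At an unadjusted p under 0.05 there were 3 after Mbd3 KD (9.67% of all genes) and 3 after Chd4 KD (12.8%). There was 1 after Dnmt1 KD (4.74%) and 0 in the others. Of these 14, 11 were lower after Mbd3 KD (median -0.26) and 10 after Chd4 KD (median -0.17). The nearest to the threshold was Uchl5, the deubiquitinase of INO80, at 3.34 and 3.33 after EGFP KD and 2.91 and 2.98 after Chd4 KD, a difference of -0.39 (SE 0.084, limma adjusted p = 0.064), followed by Ino80 after Chd4 KD at -0.58 (adjusted p = 0.12). The 17 measured SAGA subunits, partners of Trrap, also had 0 called. At an unadjusted p under 0.05 there were 5 of 17 after Mbd3 KD (9.67% of all genes) and 3 of 17 after Chd4 KD (12.8%). In each of these KDs 13 of 17 were lower, with medians of -0.26 and -0.23, beside -0.035 and 0 for all genes. Supt20 was at -0.39 (limma adjusted p = 0.13) and Tada2b at -0.55 (adjusted p = 0.32) after Mbd3 KD. Both probes were dim. In that KD the signal was -3.96 and -4.06 for Supt20 and -4.71 and -4.50 for Tada2b, beside a floor of -4.86. Of the 7 R2TP and TTT partners, which assemble Ruvbl1, Ruvbl2 and Trrap into their complexes, 0 were called, with Ecd at -0.49 (limma adjusted p = 0.15) and Telo2 at -0.56 (adjusted p = 0.26) after Chd4 KD.

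The histone variants H2A.Z and H3.3, among the substrates of these machines, had 0 of 4 genes called by limma and 0 at an unadjusted p under 0.05 in any KD. H2az2 was at 0.52 after Mbd3 KD (limma adjusted p = 0.63) and H3f3a at -0.64 after Chd4 KD (adjusted p = 0.67). Of 14 genes of the other MYST acetyltransferase complexes, 0 were called. At an unadjusted p under 0.05 there were 1 after Mbd3 KD (9.67% of all genes), 3 after Chd4 KD (12.8%) and 0 in the others. Jade2, a partner of Kat7, was at 1.21 and 1.40 after EGFP KD and 2.01 and 2.01 after Chd4 KD, a difference of 0.71 (SE 0.18, limma adjusted p = 0.10). After Mbd3 KD it was at 0.51 and 0.79, below both controls, a difference of -0.65 (limma adjusted p = 0.23). Kat6b was at -0.42 after Chd4 KD (limma adjusted p = 0.17). Both Jade2 arrays of Chd4 KD lay above the controls and both Kat6b arrays below them. These genes were picked by their small p, which favours such a gap, and 37.9% of all genes had one after Chd4 KD.

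Likeness of profile was measured for the 2 members with the widest range as the root mean square difference of log2 signals over the 12 arrays, each gene less its own mean, against 19177 named genes. Nearest to Ep400 were Synpo2l (0.107), Gm6578 (0.108) and Cherp (0.113), and nearest to Kat5 were Hao2 (0.0800), Lim2 (0.0945) and Ccdc58 (0.106). No other subunit of the complex was among them, and the profiles share the slides and controls described above.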

How the data were processed

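Total RNA from 12 samples (6 groups of 2) was labelled with Cy3 and hybridised to Agilent mouse whole-genome arrays. Per the labels, Agilent Feature Extraction 10.7.1.1 made the deposited scanner files, whose processed signal is an intensity already corrected for background by that software, with no scaling between arrays. A further table by the authors, of log2 ratios against EGFP KD, was left aside. Probes outside the control spots were averaged over spots, marked outlier spots were left out, signals were divided by the 75th percentile of their array, floored (log2 -4.86) and put on the log2 scale, a probe was retained if some group had it above background on each of its arrays (36122 of 39429), and the brightest probe stood for a gene. Differences were tested with limma 3.58.1 in R 4.3.3 (lmFit and eBayes, 6 groups, two-sided, Benjamini-Hochberg within a comparison over 29848 genes, 19404 of them with a symbol), after a test of the code on simulated data. The precision is limited by the 2 arrays a group. Each array's slide was read from its header.

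Genes named are the members by every probe, the targeted genes, and of each list the called genes or else the 2 with the smallest p, and the 3 genes nearest in profile to the 2 members of widest range. The members and lists (other Tip60-p400 subunits, SRCAP and INO80, SAGA, R2TP and TTT, histone variants, other MYST acetyltransferases, and markers of ES cells, fibroblasts and differentiated lineages) were chosen with earlier results of these data known. Alternatives were other scalings (quantile, array median), normexp (offset 50, on the median signal, since the scanner files used hold no mean foreground signal), filters, floors, probe rules, variance priors, array weights, the slide or replicate number as a block, and leaving out each array. Leaving out slide 3, and replicate 2 by itself for counts of members outside the controls, were chosen after seeing the data. Gene symbols and promoters came from RefSeq tables (GRCm38.p6).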

Additional observations from a re-analysis of the deposited data

How the results depend on the processing

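The count of called members was 0 in each of the 5 KDs, over the 6 groups and between KDs under every one of up to 29 alternatives that could be fitted for it. Of the 40 member values, 13 kept their sign in all alternatives and none was called in any. The Ep400 value was below 0 in all of them in Tet1, Mbd3, Mbd2 and Chd4 KD, from -0.78 to -0.18 in Chd4 KD. The lowest adjusted p of a member in limma was 0.098, for Ruvbl1 in Chd4 KD, where the value ran from -0.42 to -0.075 and the highest adjusted p was 1. Counts of called genes moved: 0 to 636 in Mbd3 KD and 0 to 2005 in Chd4 KD, and both were 0 without slide 3 and with only the 4 arrays of a comparison. The targeted Chd4 lost its call in 18 of 29 alternatives and Mbd3 in 3.

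With the replicate number as a block (replicate block), the members called by limma were 0 in each KD, with 1 in Tet1 KD and 2 in Chd4 KD at an unadjusted p under 0.05, and the Ep400 value in Chd4 KD had an adjusted p of 0.24. Deviations of same-numbered arrays correlated between -0.042 and 0.77 over the 15 pairs of groups, not over 0.1 in every pair, so the numbers were not taken to pair the arrays. The highest, 0.77, 0.71 and 0.64, were among Dnmt1, Mbd3 and Mbd2 KD, whose same-numbered arrays share a slide. With the slide as a fixed block, the Ep400 value in Chd4 KD was -0.37 and the adjusted p of Ruvbl1 in Chd4 KD was 0.10.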
